A study of Mus musculus with 2 samples.

Results

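The genes described here encode the proteins of the cytoplasmic ribosome, measured by single-cell RNA sequencing in mouse bone marrow. They were chosen by symbol: Rpl or Rps followed by a digit, Rplp followed by a digit, or Rpsa, without pseudogene symbols and without the S6 kinases, listed in both deposited tables and reaching a level of 10 CPM over all cells of either table, where CPM scales a gene's counts to a total of 1000000. Of 91 matching symbols 82 reached that level, out of 22384 genes listed in both tables and 27842 listed in either, and 34 of the 82 belong to the small (40S) subunit names and 48 to the large (60S) subunit names. Just inside the minimum lay Rpl23a at 11.4 CPM, Rps4l at 11.7 CPM and Rps19bp1 at 15.7 CPM in the higher table, and just outside lay Rps3a2 at 3.67 CPM, Rpl6l at 3.46 CPM and Rpl37rt at 3.37 CPM. Rpl24, a 60S protein gene, stood at 1.04 CPM and is not among the 82.

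The study set the marrow of mice with streptozotocin-induced type 1 diabetes (T1D), a model in which a toxin destroys the insulin-producing beta cells, beside that of control mice. The T1D library came from C57/BL6 mice with high blood sugar after streptozotocin, and the control library from C57/BL6 mice with normal blood sugar given the sodium citrate solution. Both came from femurs and tibias digested with collagenase and dispase and freed of red blood cells, and there was 1 library per group, so no difference between the conditions has a replicate or a test. Every interval is an exact 95% interval that covers counting error only. The sources used here do not give the animals' sex and age, nor how many animals were pooled per library.

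The 2 libraries held 15579 kept cells of 15771 barcodes in T1D and 12803 kept cells of 12880 barcodes in control. Median counts per cell were 2757 in T1D and 3633 in control, and ribosomal RNA took 36.6% of counts in T1D and 33.0% in control. Cells were clustered without the ribosomal protein genes, and a cluster was named from marker genes, so each class name below means cells like that type. The cluster called stem or multipotent progenitors had 7 of its own markers and 7 of the granulocyte-monocyte progenitors' markers. Both tables shared 253 barcodes, 249 of them among kept cells. A further check set aside 1597 T1D and 1601 control barcodes as mixed, which fell in classes outside the neutrophil lineage but held more than 1% neutrophil granule transcripts. In addition 708 T1D and 241 control cells stayed unnamed.

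A ribosome consists of a small subunit, which reads the message, and a large subunit, which joins amino acids. Their proteins are made in nearly equal amounts, and most of their messages start with a run of pyrimidines (C or T in the gene) by which mTOR signalling and Larp1 control their translation. In bone marrow, dividing progenitors make ribosomes at a high rate, while neutrophils stop building them as they mature, and reduced ribosomal protein dosage in humans causes Diamond-Blackfan anemia, a failure of red cell production. Not every symbol matched is a structural protein: Rps19bp1 encodes a protein that binds Rps19, Rps27a encodes ubiquitin joined to a 40S protein, and Rps27l, Rpl22l1, Rpl36al, Rps4l and Rpl7l1 are paralogs or like-named relatives of core genes.

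The starts of 6 members are shown because the results below turn on these genes: Rps9 and Rps27 were lowered least along neutrophil maturation, Rpl14, Rpl36a and Rpsa were among those lowered most, and Rpl15 was among the lowest in T1D relative to control. Each line is a 30-base window, 10 bases before to 20 bases from the RefSeq transcript start on GRCm38.p6, read 5′ to 3′ on the gene's strand, with the longest unbroken run of C and T in capitals.
Rps9 (chr7:3704031-3704060, + strand): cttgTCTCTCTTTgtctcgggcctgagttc
Rps27 (chr3:90213629-90213658, - strand): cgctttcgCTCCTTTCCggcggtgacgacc
Rpl14 (chr9:120571507-120571536, + strand): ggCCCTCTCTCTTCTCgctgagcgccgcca
Rpl36a (chrX:134585644-134585673, + strand): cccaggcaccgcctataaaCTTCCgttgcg
Rpsa (chr9:120127756-120127785, + strand): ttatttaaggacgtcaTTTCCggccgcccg
Rpl15 (chr14:18270967-18270996, - strand): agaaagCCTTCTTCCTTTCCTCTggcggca
The run was 9 bases in Rps9 and in Rps27, 14 in Rpl14, 5 in Rpl36a and in Rpsa, and 17 in Rpl15. Windows were found for 61 of the 82 members, and 24 of them (39.3%) held a run of at least 8 bases made only of C and T, against 13.01% of the 27025 symbols in the RefSeq promoter table. Runs of at least 8 made only of A and G, which are the same runs on the opposite strand, stood in 4.92% of the members' windows and in 15.4% of all. The 24 members with a C and T run had a median log2 ratio of T1D over control of -0.51, against -0.56 in the 37 without. Their median log2 ratio of mature neutrophils over progenitors was -3.30, against -3.28 without, so the groups lay within 0.05 of each other in both measures. A run could lie anywhere in the window and not only at the start. The split therefore cannot tell members with a pyrimidine start from members without one, and no conclusion about such starts is drawn.

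Ribosomal protein transcripts took 2.94% of all counts in T1D cells and 3.98% in control cells. Without ribosomal RNA in the total these shares were 4.64% in T1D and 5.95% in control. The 10 most abundant members carried 35.2% of the members' counts in T1D and 30.8% in control. Symbols of ribosomal protein pseudogenes summed to 178 CPM in T1D and 227 CPM in control. Members with near-identical pseudogenes or paralogs are uncertain in level, because the counting could have split reads among the copies, and the sources used here do not give the strand setting of the counting.

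**Figure D1:**
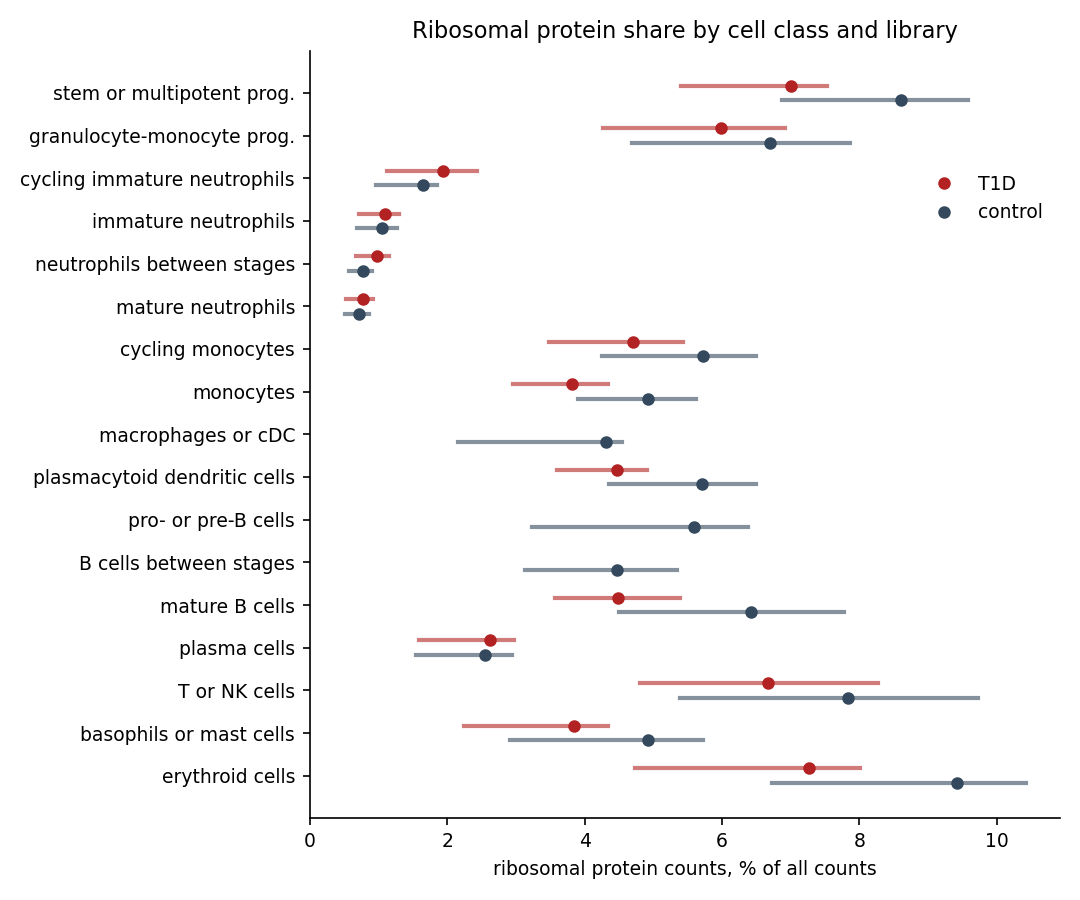
Share of all counts that came from the 82 ribosomal protein genes (x axis, percent) in each cell class (y axis) with at least 50 cells in a library, T1D in red above control in dark blue; points are pooled sums and bars the middle 50% of cells. Erythroid cells lie highest in both libraries (7.26% in T1D, 9.41% in control) and mature neutrophils lowest (0.775% in T1D, 0.717% in control).

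Erythroid cells, the red cell precursors left after lysis, had the highest share in both libraries, 7.26% in T1D and 9.41% in control. Stem or multipotent progenitors followed with 7.01% in T1D and 8.60% in control, then T or NK cells with 6.67% in T1D and 7.84% in control, and granulocyte-monocyte progenitors with 5.98% in T1D and 6.70% in control. Those 4 classes led in the same order in both libraries.

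Below them lay mature B cells with 4.48% in T1D and 6.43% in control, cycling monocytes with 4.71% in T1D and 5.72% in control, and plasmacytoid dendritic cells with 4.48% in T1D and 5.70% in control. Monocytes held 3.82% in T1D and 4.92% in control. Basophils or mast cells held 3.84% in T1D and 4.93% in control. Plasma cells, which secrete antibody, held 2.63% in T1D and 2.55% in control. These were 64 T1D and 61 control cells. By counting error, the neighbours in the order that could not be separated were mature B cells and plasmacytoid dendritic cells, and basophils and monocytes, in T1D. In control they were cycling monocytes and plasmacytoid dendritic cells, and basophils and monocytes. The middle 50% of cells overlapped between every pair of neighbours in both libraries, so the order describes sums and not single cells.

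The neutrophil lineage formed the low end of the scale. Cycling immature neutrophils held 1.94% in T1D and 1.64% in control, and immature neutrophils 1.09% in T1D and 1.05% in control. Cells between the immature and mature stages held 0.980% in T1D and 0.776% in control, and mature neutrophils 0.775% in T1D and 0.717% in control. All 4 neutrophil shares were higher in T1D than in control, while the erythroid, stem, T or NK, granulocyte-monocyte progenitor, B and both monocyte classes were lower in T1D. In each of the 22 pairs of class and library, the third of cells with the most counts had a higher ribosomal protein share than the third with the fewest, and what counts per cell contribute to the differences between libraries was not tested.

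By member, the class with the highest CPM among the 11 with at least 100 cells in both libraries was erythroid for 32 members in T1D and 50 in control. T or NK cells were highest for 23 members in T1D and 17 in control, and stem or multipotent progenitors for 19 in T1D and 7 in control. Mature neutrophils were lowest for 74 members in T1D and 63 in control. How all genes divide over the highest and lowest classes was not counted, so these numbers do not set the members apart. Of all genes tested, 56.7% in T1D and 59.2% in control were at least 2-fold lower in mature neutrophils than in granulocyte-monocyte progenitors. Among these 11 classes Rpl10, a 60S protein that joins the subunit late in its assembly, was the 1 member highest in monocytes in each library. It stood there at 392 CPM in T1D and 688 CPM in control, against 262 CPM in T1D and 543 CPM in control in erythroid cells. Plasmacytoid dendritic cells, outside the 11 with 99 T1D cells, had 357 CPM in T1D and 791 CPM in control. In control their level was thus above that of monocytes.

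The widest spread over classes, as the mean log2 span of the 2 libraries, belonged to Rpl13a (5.75), Rpl12 (5.48), Rpl36a (5.47), Rps2 (5.29) and Rpl3 (5.27). Rpl13a, a 60S protein also known in humans for silencing inflammatory messages in monocytes, had 129 CPM in T1D and 134 CPM in control erythroid cells. In mature neutrophils it had 2.52 CPM in T1D and 2.36 CPM in control. Rpl12, a protein at the base of the stalk, had 708 CPM in T1D and 783 CPM in control T or NK cells, against 22.0 CPM in T1D and 12.8 CPM in control mature neutrophils. Rps2, which lines the message entry channel of the 40S subunit, had 2239 CPM in T1D and 3055 CPM in control erythroid cells, and 71.5 CPM in T1D and 62.4 CPM in control mature neutrophils. The low end of these 5 members was in mature neutrophils, except that in control Rpl36a (14.8 CPM) and Rpl3 (31.1 CPM) were lowest in neutrophils between stages.

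Over all cells, 81 of the 82 members were lower in T1D than in control, where 66% of all 7372 genes tested, those at 10 CPM or more in either library, were lower. Members below 1 numbered 77 without ribosomal RNA in the totals, 76 with edgeR's TMM factors and 77 with DESeq2's size factors, beside 57.1%, 49.7% and 57.7% of all genes. The median log2 ratio of T1D over control was -0.55 for the members and -0.13 for all genes tested, and the members' summed level had a log2 ratio of -0.44, or -0.13 in cells of 2500 to 5000 counts. When both libraries were given the same mix of classes the summed shares were 3.16% in T1D and 3.60% in control, a log2 ratio of -0.19. That mix of 18 classes counted the mixed and the unnamed barcodes as classes and left out the B classes without T1D cells. The unnamed barcodes, from different clusters in the 2 libraries, held 1.91% in T1D and 5.00% in control, so the mix was equal only in part. Only 3 members were at least 2-fold lower, Rpl10, Rpl15 and Rpl29, beside 3.51% of all genes. Read against that background, the number of members past 2-fold is not set apart from other genes.

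Rpl10 stood at 162 CPM in T1D and 361 CPM in control (log2 ratio -1.15). Rpl15, a 60S protein mutated in some humans with Diamond-Blackfan anemia, stood at 79.6 CPM in T1D and 174 CPM in control (log2 ratio -1.13), and Rpl29, a small 60S protein, at 37.1 CPM in T1D and 78.4 CPM in control (log2 ratio -1.08). These 3 were lower in T1D in 11 of 11 classes, as were Rps27, Rpl37, Rpl27a, Rpl31, Rps16, Rps23 and Rps25. The counting interval lay below 1 in 10 classes for Rpl10, Rps27, Rpl31 and Rps25, and in 9 for the other members named. How many of all genes were lower in every class was not counted. Next in the ratio over all cells came Rpl19 (log2 ratio -0.98), Rpl36 (-0.94) and Rpl32 (-0.93).

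At the other end, Rps4l was the 1 member higher in T1D, with 11.8 CPM in T1D and 8.10 CPM in control (log2 ratio 0.54), at the edge of the level minimum. Rpsa, a 40S protein that also serves as a laminin receptor (1366 CPM in T1D and 1378 CPM in control), Rps9 (1724 CPM in T1D and 1740 CPM in control) and Rpl36al (43.8 CPM in T1D and 44.6 CPM in control) had counting intervals that included 1, and their log2 ratios lay above 0 with either set of scaling factors or without ribosomal RNA in the totals. The next highest, among members whose interval excluded 1, was Rpl38. Rpl38, a 60S protein that in mouse embryos aids the translation of Hox messages, stood at 209 CPM in T1D and 217 CPM in control (log2 ratio -0.06), and moved above 0 when ribosomal RNA was left out of the totals (0.023) or with edgeR's TMM factors (0.080) or DESeq2's size factors (0.018). Rps12 had 854 CPM in T1D and 936 CPM in control (log2 ratio -0.13, and 0.0043 with TMM), followed by Rpl14, Rpl17 and Rps21 at a log2 ratio of -0.16 each.

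Both subunits moved alike. Of the 40S members 33 of 34 were lower in T1D (median log2 ratio -0.53), and of the 60S members 48 of 48 (median -0.56), beside 66% of all genes. Among the 3 proteins of the stalk, the arm of the large subunit that recruits elongation factors, Rplp0 had 706 CPM in T1D and 982 CPM in control (log2 ratio -0.48). Rplp1 had 892 CPM in T1D and 1263 CPM in control (log2 ratio -0.50), and Rplp2 had 872 CPM in T1D and 982 CPM in control (log2 ratio -0.17).

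All 21 of 21 genes of the list of 5S particle and other Diamond-Blackfan genes were lower in T1D (median -0.57). All of them are among the 82 members, of which 81 were lower, beside 66% of all genes, so the list does not stand apart from the members. Rps19, the gene most often mutated in that anemia in humans, had 271 CPM in T1D and 470 CPM in control (log2 ratio -0.80). Rpl5 and Rpl11, which with 5S RNA bind Mdm2 and thereby stabilise p53, had log2 ratios of -0.35 and -0.64. Rps6, the target of the S6 kinases, had 239 CPM in T1D and 310 CPM in control (log2 ratio -0.37), and Rps4x, the X-linked 40S protein gene, had 360 CPM in T1D and 574 CPM in control (log2 ratio -0.67).

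Other gene lists of the protein synthesis machinery had medians below 0 that were smaller in size. Of 67 mitochondrial ribosomal protein genes 60 were below 1 (median log2 ratio -0.37), of 39 ribosome biogenesis genes 34 (-0.20), and of 32 initiation factors 25 (-0.24). Of 19 other genes known for a pyrimidine start, such as elongation factors, 17 were below 1 (-0.41), beside the 66% of all genes below 1. Myc and Mtor pathway regulators did not stand apart from all genes, with 5 of 8 below 1 and a median of -0.14, and their summed level was higher in T1D (log2 ratio 0.069). Fau and Rack1, 40S proteins named otherwise, had log2 ratios of -0.46 and -0.27.

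**Figure D2:**
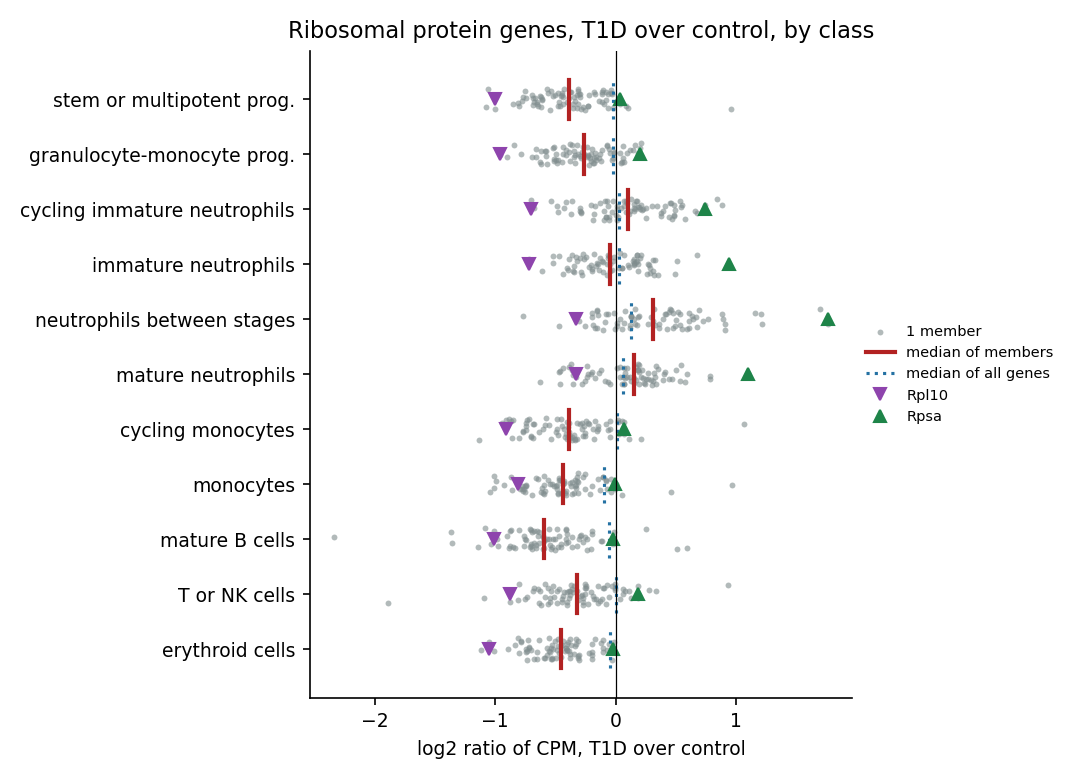
Log2 ratio of CPM, T1D over control (x axis), for every tested member (grey points) in each of the 11 cell classes compared (y axis), with the members' median, the median of all tested genes, Rpl10 and Rpsa marked as in the legend. The members' medians lie below 0 in 8 of the 11 classes, and Rpl10 lies below 0 in all 11.

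Within classes the T1D difference went in different directions, which the pooled value hides. The members' median log2 ratio was below 0 in 8 of 11 classes, lowest in mature B cells (-0.59), erythroid cells (-0.46) and monocytes (-0.44). Over the alternatives these medians ran from -0.63 to -0.38, from -0.75 to -0.04 and from -0.47 to -0.38, so the ranges of the classes overlap. It was -0.39 in cycling monocytes, -0.38 in stem or multipotent progenitors, -0.32 in T or NK cells and -0.27 in granulocyte-monocyte progenitors. The median over all genes lay between -0.10 and 0.01 in these 7 classes.

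Counts of members below 1 followed the same line. They were 81 of 81 in erythroid cells (54% of all genes), 79 of 82 in mature B cells (53.2%), 78 of 82 in monocytes (59.2%) and 77 of 82 in stem or multipotent progenitors (52.7%). They were 71 of 82 in cycling monocytes (48.8%), 70 of 81 in T or NK cells (50%) and 69 of 82 in granulocyte-monocyte progenitors (52.2%). In each of these 7 classes the members' share lay above the share of all genes.

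In the neutrophil classes the members were mostly not lower in T1D in CPM. The median log2 ratio was 0.10 in cycling immature neutrophils, 0.31 in cells between stages, where it turned to -0.17 with TMM factors, and 0.15 in mature neutrophils, where it turned to -0.0081 with DESeq2's size factors. Members below 1 numbered 29 of 80 in the cycling cells (47.5% of all genes), 19 of 78 between stages (40.9%) and 24 of 77 in mature cells (45.2%). In immature neutrophils the members' median was -0.05, with 44 of 78 below 1 (47.1%), while their summed level gave a log2 ratio of 0.06, so median and sum differed in sign.

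The mature neutrophils of the libraries lay mostly in different clusters, 2 clusters led by genes such as Asprv1 and Stfa2 in T1D and 1 cluster led by Clec4d in control, and values within this class carry that difference. Cells between stages were split likewise: a cluster with a ribosomal protein share of 0.765% held 120 of 248 T1D and 1637 of 1773 control cells, and another with 0.991% held 128 T1D and 136 control cells. Among cells of 2500 to 5000 counts in both libraries, 7 classes could be compared. The shares there were 6.19% in T1D and 7.53% in control stem or multipotent progenitors, 3.77% in T1D and 4.77% in control monocytes, and 6.74% in T1D and 8.10% in control T or NK cells. Cycling immature neutrophils held 1.85% in T1D and 1.36% in control, and mature neutrophils 0.819% in T1D and 0.725% in control. The classes lower in T1D and those higher in T1D kept the direction of their summed share within this range of counts in all 7. Median counts per cell were not made equal by the range. They stayed lower in T1D, as in monocytes (3533.5 in T1D and 3811 in control), except in mature neutrophils (3027 in T1D and 3003.5 in control).

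Rpl10 and Rpsa lay near opposite ends of the members in most classes. Rpl10 was among the 10 lowest members in 10 of 11 classes, with a counting interval below 1 in 10, and Rpl29 was among the 10 lowest in 9. In stem or multipotent progenitors Rpl10 had 306 CPM in T1D and 612 CPM in control, in T or NK cells 337 CPM in T1D and 618 CPM in control, and in immature neutrophils 80.3 CPM in T1D and 132 CPM in control. T1D was lower in each of these classes whether the members as a group were lower there or not.

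Rpsa was among the 10 highest members in 11 of 11 classes. It was close to equal in stem or multipotent progenitors, at 3340 CPM in T1D and 3259 CPM in control, and in monocytes, at 1713 CPM in T1D and 1716 CPM in control. In immature neutrophils it had 370 CPM in T1D and 193 CPM in control (log2 ratio 0.94), and in mature neutrophils 173 CPM in T1D and 80.6 CPM in control (log2 ratio 1.10, 0.83 to 2.09 over the alternatives). Its counting interval lay above 1 in 7 of 11 classes, also in granulocyte-monocyte progenitors (3146 CPM in T1D and 2735 CPM in control), T or NK cells (2802 CPM in T1D and 2457 CPM in control) and cycling monocytes (2409 CPM in T1D and 2295 CPM in control).

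Besides Rpsa, the members highest in T1D immature neutrophils were Rpl36a (59.6 CPM in T1D and 37.4 CPM in control), Rpl14 (log2 ratio 0.51) and Rps12 (0.49), and the lowest besides Rpl10 were Rpl29 (-0.61), Rpl34 (-0.52) and Rpl15 (-0.52). In mature neutrophils Rpl12 had a log2 ratio of 0.78, Rpl5 also 0.78, with 33.3 CPM in T1D and 19.4 CPM in control, and Rpl36a 0.59. The lowest there was Rps27 with 65.7 CPM in T1D and 101 CPM in control (log2 ratio -0.63), then Rpl27a (-0.47), Rpl34 (-0.46) and Rpl30 (-0.46).

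Mature B cells rested on 251 T1D and 225 control cells with 456367 and 542240 counts, so a level of 10 CPM there stands for about 5 counts. A further 287 T1D and 324 control barcodes of these clusters, more than were kept, had been set aside as mixed. With them kept, the class's summed log2 ratio of T1D over control was -0.29 instead of -0.52. Rpl22l1, the paralog of the lymphocyte-associated 60S gene Rpl22, had 61.4 CPM in T1D and 159 CPM in control (log2 ratio -1.37), and Rpl19 had 210 CPM in T1D and 540 CPM in control (log2 ratio -1.36). Rpl29 had a log2 ratio of -1.15. Rps4l had the lowest ratio of all, from 1 count in T1D and 6 counts in control, with an interval that reached 1. The highest were Rps27l (0.59), Rps19bp1 (0.51) and Rpl13a (0.25), each with few counts, and Rps10 (-0.01). For Rpl22l1 the same direction held in T or NK cells, at 88.1 CPM in T1D and 188 CPM in control.

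**Figure D3:**
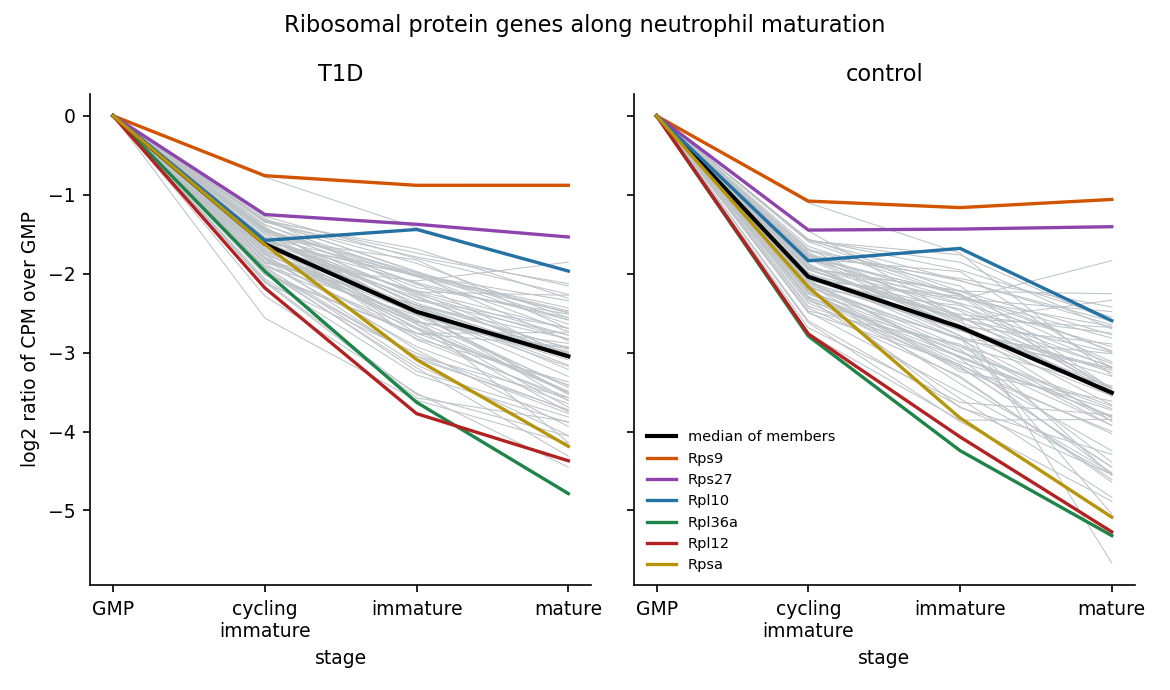
Log2 ratio of CPM over granulocyte-monocyte progenitors (GMP, y axis) at 4 stages of the neutrophil lineage (x axis), T1D on the left and control on the right; grey lines are members, the black line their median, and coloured lines the named genes. The median ends at -3.05 in T1D and -3.51 in control, and Rps9 ends highest at -0.88 in T1D and -1.06 in control.

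Along neutrophil maturation nearly all ribosomal protein genes were lowered in CPM. From granulocyte-monocyte progenitors to mature neutrophils the summed level had a log2 ratio of -2.95 in T1D and -3.22 in control, which leaves 0.130 of the progenitors' level in T1D and 0.107 in control. At least 2-fold lower were 81 of 82 members in T1D, where 56.7% of all genes were, and 82 of 82 in control, where 59.2% were. The same 81 members were 2-fold lower in both libraries, and 74 with TMM factors and 77 with DESeq2's size factors. The members' median log2 ratio was -3.05 in T1D and -3.51 in control, against -1.34 in T1D and -1.54 in control for all genes tested.

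These values are shares of each stage's counts. With edgeR's TMM factors the median of all genes moved up by 1.20 in T1D and 1.27 in control, and the members' sum became -1.75 in T1D and -1.96 in control. DESeq2's size factors gave -1.94 in T1D and -2.06 in control, and cells of 2500 to 5000 counts, in CPM, gave -2.76 in T1D and -2.94 in control. Over all cells, the first step, to cycling immature neutrophils, was the largest, with a summed log2 ratio of -1.63 in T1D and -2.03 in control. The step to immature neutrophils added -0.83 in T1D and -0.65 in control, and the step to mature neutrophils -0.49 in T1D and -0.55 in control.

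The members most lowered were Rpl36a, Rpl36al, Rpl12, Rpl14 and Rpsa. Rpl36a, a 60S protein gene, had 738 CPM in T1D and 708 CPM in control progenitors. In mature neutrophils it had 26.7 CPM in T1D and 17.7 CPM in control, log2 ratios over progenitors of -4.79 in T1D and -5.32 in control. Rpl36al, its paralog, had log2 ratios of -4.14 in T1D and -5.67 in control, at under 5 CPM in mature neutrophils of both libraries. Those of Rpl12 were -4.37 in T1D and -5.27 in control, those of Rpl14 -4.45 in T1D and -4.88 in control, and those of Rpsa -4.19 in T1D and -5.08 in control. Each of these 5 was lowered further in control than in T1D. Over the alternatives the control log2 ratio ran from -9.00 to -4.00 for Rpl12 and from -7.41 to -4.05 for Rpl36a. That of Rpsa ran from -7.00 to -3.82. Judged by plasma cell genes, free RNA from outside the cell made up 6.36% of counts in T1D and 4.35% in control mature neutrophils. Subtracting it was among the alternatives, and what it adds to these low levels was not tested further.

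The members least lowered were Rps9, Rps27, Rpl37, Rps27a and Rpl10. Rps9, a 40S protein needed for decoding accuracy, had 2288 CPM in T1D and 2183 CPM in control progenitors, and 1243 CPM in T1D and 1048 CPM in control mature neutrophils. Its log2 ratio was -0.88 in T1D and -1.06 in control, and it turned to 0.32 in T1D and 0.21 in control with TMM factors and to 0.13 in T1D and 0.11 in control with DESeq2's size factors. Within the members, its share of counts was 16.0% in T1D and 14.6% in control mature neutrophils, against 3.83% in T1D and 3.26% in control progenitors.

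Rps27 had a log2 ratio of -1.53 in T1D and -1.40 in control, and Rpl37, a zinc-binding 60S protein, -1.85 in T1D and -1.83 in control. Rps27a had -2.27 in T1D and -2.25 in control, and Rpl10 -1.97 in T1D and -2.60 in control. The first step carried most of the change of Rps9, -0.76 in T1D and -1.08 in control, and its level was nearly flat afterwards.

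**Figure D4:**
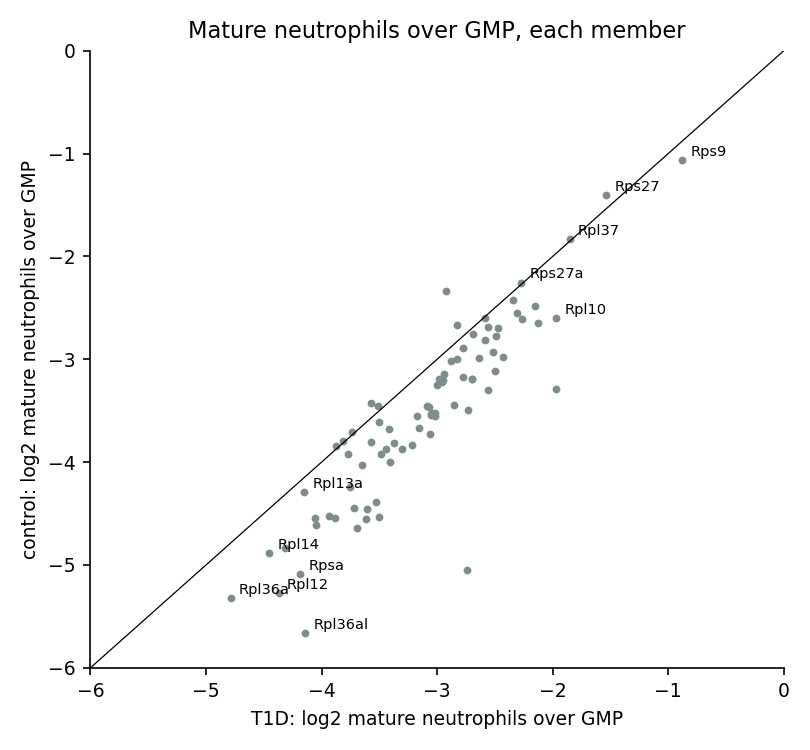
Log2 ratio of mature neutrophils over granulocyte-monocyte progenitors for each of the 82 members, T1D on the x axis and control on the y axis, with the line of equality. Most points lie below the line, Rps9 lies at the upper right (-0.88 in T1D, -1.06 in control) and Rpl36a at the lower left (-4.79 in T1D, -5.32 in control).

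The members' order was alike in both libraries. Over the 82 members, Pearson's r between the T1D and the control log2 ratios was 0.89 and Spearman's rho 0.90, given as a description, since members are not independent and the libraries share preparation and cell classes. Transcript length and GC content had little relation to these ratios. Over 81 members with a protein-coding GENCODE transcript, taking the median over a gene's transcripts, r was -0.14 with length and -0.07 with GC for the mean of both libraries' log2 ratios.

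By role, the members again moved together. At least 2-fold lower were 33 of 34 40S members in T1D and 34 of 34 in control, the exception being Rps9, and 48 of 48 60S members in both libraries. Of all genes 56.7% were in T1D and 59.2% in control. The stalk genes had log2 ratios of -2.94 in T1D and -3.20 in control (Rplp0), -3.87 in T1D and -3.85 in control (Rplp1), and -3.57 in T1D and -3.80 in control (Rplp2). Of the 5S particle and Diamond-Blackfan genes 21 of 21 were 2-fold lower in both libraries, among them Rps19 with -3.21 in T1D and -3.83 in control, Rpl5 with -3.60 in T1D and -4.45 in control and Rpl11 with -2.85 in T1D and -3.45 in control.

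The machinery that builds ribosomes was lowered by a larger median than the proteins themselves. At least 2-fold lower were 56.7% of all genes in T1D and 59.2% in control. Of 40 ribosome biogenesis genes 39 were at least 2-fold lower in T1D and 39 in control (median log2 ratio -4.43 in T1D and -5.18 in control), and Polr1a, the largest subunit of RNA polymerase I, was the exception in both, with log2 ratios of 0.56 in T1D and 0.15 in control. Mitochondrial ribosomal protein genes were lower in 68 of 70 in T1D and 70 of 71 in control, and Mrpl33 was above the progenitors' level, at 0.35 in T1D and 0.63 in control.

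Of 32 translation initiation factors 27 were 2-fold lower in each library, beside 56.7% of all genes in T1D and 59.2% in control. The exceptions included Eif4ebp1, a brake on cap-dependent initiation under mTOR, with log2 ratios of 1.07 in T1D and 1.38 in control, and Eif1, which helps the ribosome find the start codon, with 0.67 in T1D and 0.88 in control. Both stood higher in mature neutrophils than in progenitors.

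Of the other genes with a pyrimidine start 18 of 19 were 2-fold lower in T1D and 16 of 19 in control. Npm1, a nucleolar chaperone, had -4.64 in T1D and -5.69 in control, while Vim, an intermediate filament gene, had 0.36 in T1D and -0.12 in control. Myc and Mtor pathway regulators were 2-fold lower in 4 of 8 in T1D and 5 of 9 in control. They did not stand apart from all genes, of which 56.7% were 2-fold lower in T1D and 59.2% in control. Larp1, which binds pyrimidine starts, had -3.87 in T1D and -4.49 in control, and Max, the partner of Myc, stood higher at 1.45 in T1D and 1.66 in control. Fau, the other gene that fuses a ubiquitin-like protein to a 40S protein, had -1.01 in T1D and -0.73 in control, in the range of Rps9 and not of most members, and Rack1 had -3.56 in T1D and -4.09 in control.

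The B lineage gave another course. It could be followed from pro- or pre-B cells in the control library alone, since the T1D library had 0 cells in that class and 0 in the class between pre-B and mature B cells. There the members' summed level in mature B cells had a log2 ratio over pro- or pre-B cells of 0.20 and their median was 0.28, against -0.26 for all genes. Only 3 of 82 members were at least 2-fold lower, against 28% of all genes, while 15 of 40 ribosome biogenesis genes, 32 of 73 mitochondrial ribosomal protein genes and 9 of 32 initiation factors were. The 3 were Rps27l, whose levels follow below, Rpl13a (log2 ratio -1.27) and Rps19bp1 (-1.25). Rps27 had the highest ratio, 1.64, followed by Rps4l with 1.10.

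**Figure D5:**
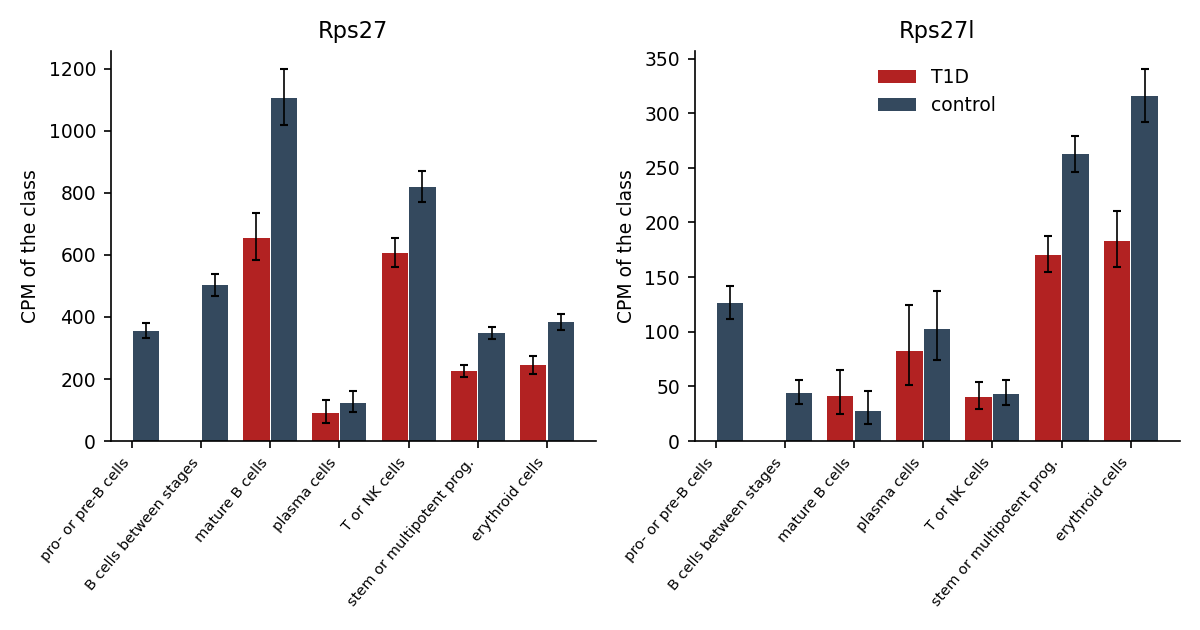
CPM (y axis, from 0) of Rps27 on the left and Rps27l on the right in 7 cell classes (x axis), T1D in red left of control in dark blue, with exact 95% counting intervals; pro- or pre-B cells and B cells between stages were named in control alone. Rps27 is highest in mature B cells (655 CPM in T1D, 1107 CPM in control) and Rps27l in erythroid cells (183 CPM in T1D, 315 CPM in control).

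Rps27 and Rps27l, whose proteins differ at few residues and of which Rps27l is a p53 target, thus ran in opposite directions along the B lineage. In control, Rps27 had 356 CPM in pro- or pre-B cells, 503 CPM in B cells between stages and 1107 CPM in mature B cells, and T1D mature B cells had 655 CPM. Rps27l had 126 CPM, 43.7 CPM and 27.7 CPM at the same control stages, and 41.6 CPM in T1D mature B cells. The Rps27 levels did not overlap between these control stages within counting error. Those of Rps27l overlapped at the last step, between B cells between stages (33.9 to 55.5 CPM) and mature B cells (15.5 to 45.6 CPM, from 15 counts). Over the alternatives the log2 ratio of mature over pro- or pre-B cells ran from 0.82 to 1.93 for Rps27 and from -3.86 to -1.30 for Rps27l.

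Plasma cells showed the reverse. Rps27 had 89.6 CPM in T1D and 123 CPM in control plasma cells, and Rps27l had 82.1 CPM in T1D and 102 CPM in control, from 22 T1D and 44 control counts. T or NK cells resembled mature B cells, with Rps27 at 608 CPM in T1D and 819 CPM in control and Rps27l at 40.0 CPM in T1D and 43.2 CPM in control. Progenitors and erythroid cells held more Rps27l than either. Stem or multipotent progenitors had 171 CPM in T1D and 262 CPM in control, and erythroid cells 183 CPM in T1D and 315 CPM in control, while their Rps27 lay at 226 CPM in T1D and 347 CPM in control and at 244 CPM in T1D and 384 CPM in control.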

How the data were processed

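The authors deposited 1 table per library of raw counts, genes by barcodes, without normalization. Per the submitters' processing notes, bcl2fastq 2.19 split the reads, featureCounts counted them over genes, and the build was mm9. Aligner, annotation, strand setting and any collapse of molecular identifiers: not given in the sources used here. Total counts were 52022458 in T1D and 57494166 in control.

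A barcode was kept when it showed 200 genes or more and its mitochondrially encoded counts did not exceed 20%. Clustering used log-transformed shares of each cell's counts, the 2000 genes most variable in each library without ribosomal protein, hemoglobin, mitochondrially encoded and antigen receptor genes, 30 principal components, 15 neighbours and the Leiden method at resolution 1 (igraph 0.11.9, the highest modularity of 10 starts), which gave 30 clusters. A name needed at least 3 of a class's markers, each with a 2-fold excess and 50 CPM. No doublet caller was run. Counts were summed per class and library and expressed as CPM, and classes with 100 or more cells in each library were compared between them. Ratios are plain, of T1D over control or of a later over an earlier stage, with exact conditional binomial intervals, and CPM values have exact Poisson intervals. The size rule was 2-fold with at least 10 CPM in the higher group, and genes were tested where 1 side reached 10 CPM. It was tested on simulated counts. Scaling factors came from edgeR 4.0.16 and DESeq2 1.42.0.

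The members and lists were chosen with earlier results of these data known. Members named are the stalk, subunit and disease genes listed above and those at the ends of each ratio. The following were chosen after seeing the data: the treatment of clusters with markers of a pair of stages, the S-phase genes and the 5 neutrophil granule genes used for names and mixed barcodes, the setting aside of mixed barcodes, the start window and its run length, and the alternatives with mixed barcodes kept, shared barcodes left out, between-stage neutrophils added, class mix held equal, means over cells and cells of 2500 to 5000 counts. The values of 1 member under the alternatives are not reported here, though it stays in the sums, medians and counts over the 82 members.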

Additional observations from a re-analysis of the deposited data

Results flagged for a closer look

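The summed ribosomal protein level moved in opposite directions in different cell classes, and the difference between the classes was not tested. Its log2 ratio of T1D over control was above 0 in cycling immature neutrophils (0.24), immature neutrophils (0.059), neutrophils between stages (0.34) and mature neutrophils (0.11). It was below 0 in stem or multipotent progenitors (-0.30), granulocyte-monocyte progenitors (-0.16), cycling monocytes (-0.28), monocytes (-0.37), mature B cells (-0.52), T or NK cells (-0.23) and erythroid cells (-0.37). The barcodes set aside as mixed, which enter no class comparison, held a ribosomal protein share of 3.72% in T1D and 3.51% in control, opposite in direction to the share over all cells. Split by the class of their cluster, the mixed shares were lower in T1D wherever both libraries held at least 50 such barcodes. Examples are monocytes (2.89% in T1D, 3.20% in control) and T or NK cells (3.97% in T1D, 4.39% in control). The control library alone held 555 mixed barcodes of B cells between stages, at 2.34%. What the class mix adds to the pooled mixed shares was not tested.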

How the results depend on the processing

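No paired analysis was possible because each group has 1 library. The log2 ratio of the summed level over all cells, T1D over control, was -0.44. It became -0.36 without ribosomal RNA, -0.38 without ribosomal RNA and members, -0.30 with TMM factors, -0.36 with DESeq2 size factors, -0.43 at most 10% mitochondrially encoded counts, -0.46 thinned to 1000 counts, -0.75 as a median over cells, -0.19 with the class mix held equal and -0.13 in cells of 2500 to 5000 counts. The classes with a member median below 0 ranged from 7 to 9 of the 11 compared, with 7 of 10 and 9 of 12 at other starts and 10 of 13 with mixed barcodes kept, and were 3 of 7 in cells of 2500 to 5000 counts, where fewer classes had enough cells.

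For mature neutrophils over granulocyte-monocyte progenitors the summed log2 ratio was -2.95 in T1D and -3.22 in control. It became -2.65 in T1D and -3.00 in control without ribosomal RNA, -2.75 in T1D and -3.12 in control without ribosomal RNA and members, -1.75 in T1D and -1.96 in control with TMM, -1.94 in T1D and -2.06 in control with DESeq2, -2.93 in T1D and -3.16 in control when thinned, and -3.05 in T1D and -3.39 in control at Leiden resolution 2. It was -3.11 in T1D and -3.46 in control at the lowest of 10 starts and -2.83 in T1D at the highest. With free RNA subtracted it was -3.27 in T1D and -3.57 in control, as a median over cells -3.00 in T1D and -3.18 in control, with between-stage neutrophils added -2.92 in T1D and -3.16 in control, and in cells of 2500 to 5000 counts -2.76 in T1D and -2.94 in control. Members 2-fold lower in both libraries numbered 71 to 81, with 71 under a 100 CPM minimum, which leaves fewer members, 74 with TMM and 77 with DESeq2.

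Some directions turned. The member median of immature neutrophils turned to 0.042 without ribosomal RNA, 0.045 also without members, 0.10 at resolution 2, 0.20 at the highest start and 0.017 in cells of 2500 to 5000 counts. That of neutrophils between stages turned to -0.17 with TMM and -0.053 at the lowest start, and that of mature neutrophils to -0.0081 with DESeq2 and -0.040 at the lowest start. The summed ratio turned to -0.14 between stages with TMM, -0.046 in mature neutrophils with DESeq2 and 0.055 in erythroid cells with free RNA subtracted, where 1 T1D barcode held 759 of the 890 plasma cell gene counts that set the subtraction.

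Rps9 over maturation turned to 0.32 in T1D and 0.21 in control with TMM and to 0.13 in T1D and 0.11 in control with DESeq2. Over all cells Rpl38 turned to 0.023 without ribosomal RNA, 0.0032 also without members, 0.080 with TMM and 0.018 with DESeq2, and Rps12 to 0.0043 with TMM. In cells of 2500 to 5000 counts the log2 ratios of these members turned above 0: Rpl14 (0.33), Rpl17 (0.066), Rpl36a (0.30), Rpl37a (0.12), Rpl38 (0.36), Rpl41 (0.15), Rpl7l1 (0.088), Rpl8 (0.13), Rplp2 (0.26), Rps12 (0.39), Rps21 (0.19), Rps24 (0.0060) and Rps3a1 (0.13). Rpsa, Rps9 and Rpl36al, whose intervals included 1 over all cells, reached 0.53, 0.17 and 0.41 there. Apart from those stated, the cause was not tested. Of 1201 alternative values for 81 members over all cells 779 moved by less than counting error, and of 442 for named members within classes and stages 286 did. Alternatives that change only the class labels, the level minimum or the free RNA within classes leave a member's value over all cells unchanged. Many of the 779 were therefore fixed in advance and do not measure stability. Depth limits mature B cells most, where a member at the minimum rests on a few counts.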
